A study of Oryctolagus cuniculus with 20 samples.

Results

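Nuclear genes for the machinery of oxidative phosphorylation were followed through 20 RNA sequencing libraries of rabbit (Oryctolagus cuniculus) blood vessels. They were chosen by name from the deposited table. Symbols that began with NDUF, UQCR or ATP5 counted, as did SDHA, SDHB, SDHC and SDHD. COX symbols counted where a number from 4 to 8 was followed by A, B, C or a digit. That pattern leaves out COX4I1 and COX4I2. The rule gave 47 of 23669 genes. Of these, 39 encode subunits of the complexes, 7 encode assembly factors of complex I (NDUFAF1 to NDUFAF7), and NDUFA4L2 is a paralog of a small complex IV subunit. The study moved a piece of common carotid artery into a vein. The groups, of 4 libraries each, were external jugular vein without operation, the grafted artery at day 30, the unoperated carotid artery of the other side at day 30, the grafted artery at day 14 and the unoperated carotid artery of the other side at day 14. No genotype, strain or age was given, and the libraries also carry the cell line name HASMC beside labels that describe tissue. The labels number the libraries of a group as biological replicates without saying that each came from its own animal, and the p-values therefore reflect scatter among these libraries, which may be technical.

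Oxidative phosphorylation passes electrons from NADH (through complex I) and from succinate (through complex II) to complex III, cytochrome c and complex IV, where oxygen is reduced. Complexes I, III and IV pump protons across the inner mitochondrial membrane, and complex V, the ATP synthase, lets them back through a rotating ring to make ATP. Most subunits are encoded in the nucleus and imported, and a few core subunits are encoded in mitochondrial DNA, so the complexes are built from both genomes. Contractile smooth muscle of arteries makes ATP by this route and by glycolysis.

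The values are FPKM, fragments scaled by transcript length and by library size, so levels can be compared between genes, but the number of reads behind them is unknown. Averaged over the 20 libraries, the 5 complex IV genes had a median of 233 FPKM and the 9 complex V genes one of 195 FPKM. The 21 complex I genes had a median of 66.5 FPKM and the 7 assembly factors one of 2.92 FPKM. ATP5F1E, the epsilon subunit of the ATP synthase head, was the highest of all at 902 FPKM, followed by COX6A1, a small subunit of complex IV, at 564 FPKM. At the other end were NDUFA8 and NDUFB4, accessory subunits of complex I that stayed under 1 FPKM in all libraries and were not tested, which left 45 genes. Every complex I needs both proteins, and COX4I1, the main isoform of a regulatory complex IV subunit, was listed at 0 in all 20 libraries, so a value near 0 in this table can be a failed estimate. The name rule also passed over subunits whose symbol the table leaves out. They are given with the neighbouring pathways.

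Library totals lay between 327806 and 671582 FPKM. The groups differed in spread: the SD of log2 values, as a median over the 45 genes, was 0.292 in grafts of day 14, 0.161 in grafts of day 30, 0.207 in controls of day 30, 0.151 in vein and only 0.0753 in controls of day 14, whose 4 libraries were close to identical. Graft day 14 replicate 3, control day 30 replicate 2, graft day 30 replicate 4 and vein replicate 4 each lay near a weighted mean of the other libraries of their group, and are called mixture-like here. Single genes departed from this. In the same order, these libraries were the highest of their group for 7, 7, 9 and 8 of the 45 genes and the lowest for 2, 7, 1 and 7. In grafts of day 14, replicate 2 was the highest of the 4 for 24 of the 45 genes and replicate 1 the lowest for 28. In controls of day 30, replicate 1 was the highest for 29 and replicate 3 the lowest for 33. The 47 genes summed to 5736 ± 380.5 FPKM in vein, 5161 ± 382 FPKM in grafts of day 30, 5025 ± 829 FPKM in controls of day 30, 7229 ± 1341 FPKM in grafts of day 14 and 4533 ± 30.9 FPKM in controls of day 14 (SD, n = 4 each). In unscaled FPKM the sum was highest in grafts of day 14, whose lowest library (5770.5 FPKM) exceeded the highest control of day 14 (4571 FPKM). As a share of the summed FPKM of all nuclear genes the groups overlapped, with 1.35% to 1.996% in grafts of day 14, where replicate 1 lay below every control, and 1.39% to 1.47% in controls of day 14. Grafts of day 14 still overlapped vein (5432 to 6289.6 FPKM) and controls of day 30 (4300.4 to 6188 FPKM).

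**Figure D1:**
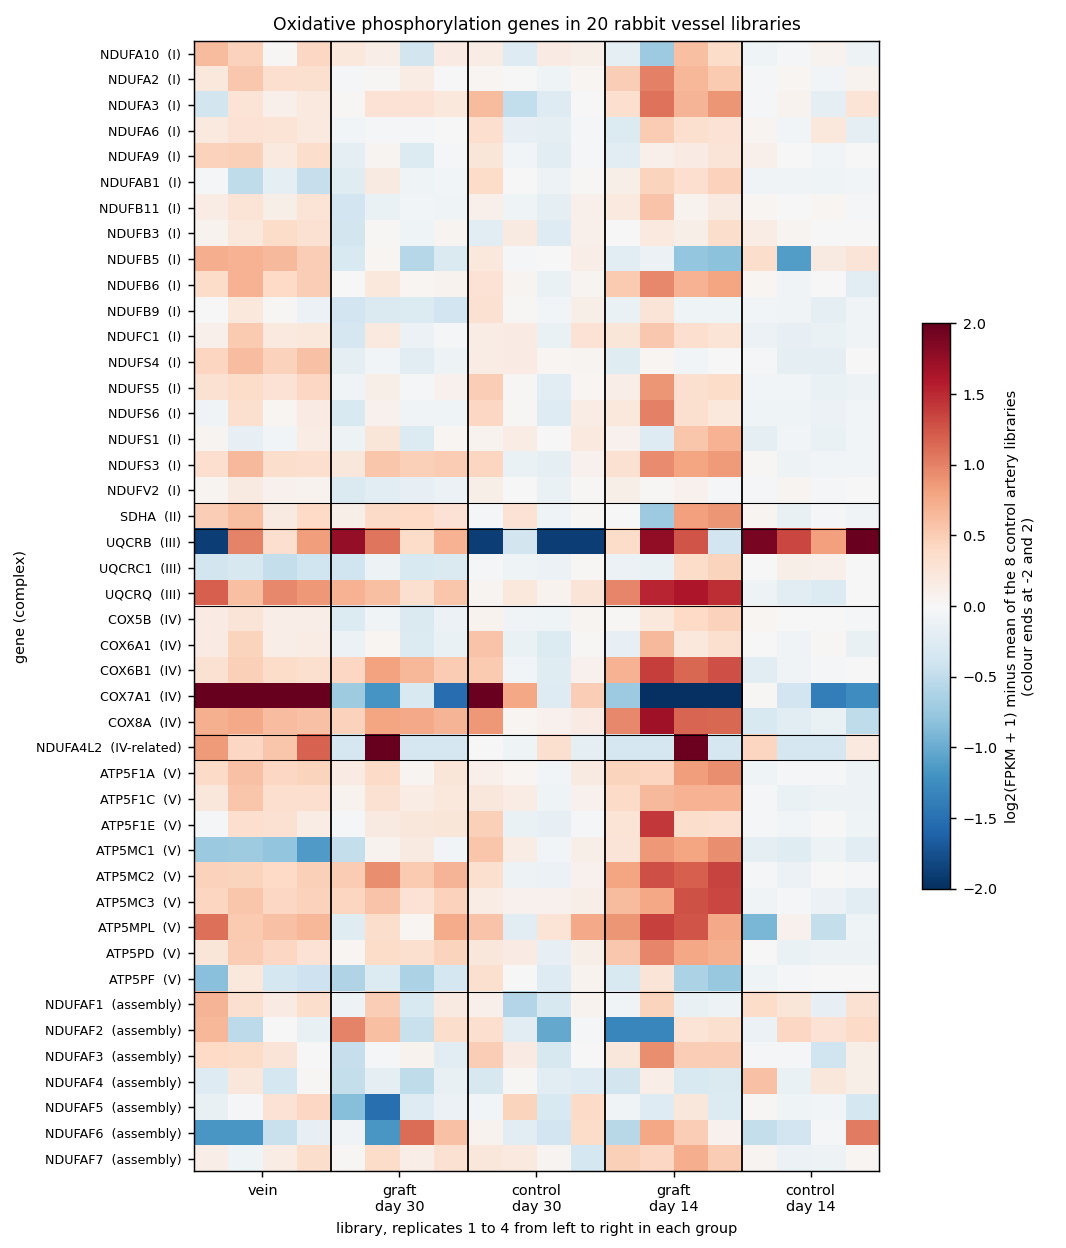
Each row is 1 of 44 tested genes, grouped by complex, and each column 1 library. Colour gives log2(FPKM + 1) minus the mean of the 8 control artery libraries. Grafts of day 14 are red across most of complex V and parts of complexes I, III and IV, COX7A1 is red in all 4 vein libraries and blue in grafts, and UQCRB varies within groups.

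At day 14, 23 of the 45 tested genes were called higher in grafts than in the opposite arteries and 1, COX7A1, lower. The test was limma on log2(FPKM + 1) with Benjamini-Hochberg adjustment over all 8657 genes tested and a threshold of 0.05. Over all genes the test called 36.5% higher and 17.0% lower. The genes called higher comprised 8 of 9 in complex V, 9 of 19 in complex I, 3 of 5 in complex IV, 1 of 3 in complex III and 2 of 7 assembly factors. The median log2 change of the 45 genes was 0.37, against 0.26 over all genes. Median-of-ratios scaling, which centres all genes (median 0.04), lowered the median of the 45 genes to 0.08, with 14 called higher and 5 lower, against 27.3% higher and 24.7% lower over all genes. TPM gave 12 higher and 3 lower, against 24.7% and 19.1% of all genes, and quantile normalization 14 and 7, against 25.3% and 26.3%. Rescaling without the mitochondrially encoded genes gave 13 and 6, against 25.2% and 24.1%. Of the 23 genes, 12 were called higher under the deposited values and all 4 of these scalings, and COX7A1 was called lower under all 5. The share of all 8657 genes called under all 5 was not counted, here or in the other comparisons. COX7A1 was not called without graft replicate 2, 3 or 4 or control replicate 1 or 2. The 12 were NDUFA2, NDUFB6, NDUFS3, UQCRQ, COX6B1, COX8A, ATP5F1C, ATP5MC1, ATP5MC2, ATP5MC3, ATP5MPL and ATP5PD. With the controls of day 14 counted as 1 sample, limma called 14 genes higher and 0 lower (17 and 0 at an unadjusted p under 0.05), against 20.3% and 8.73% of all genes.

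**Figure D2:**
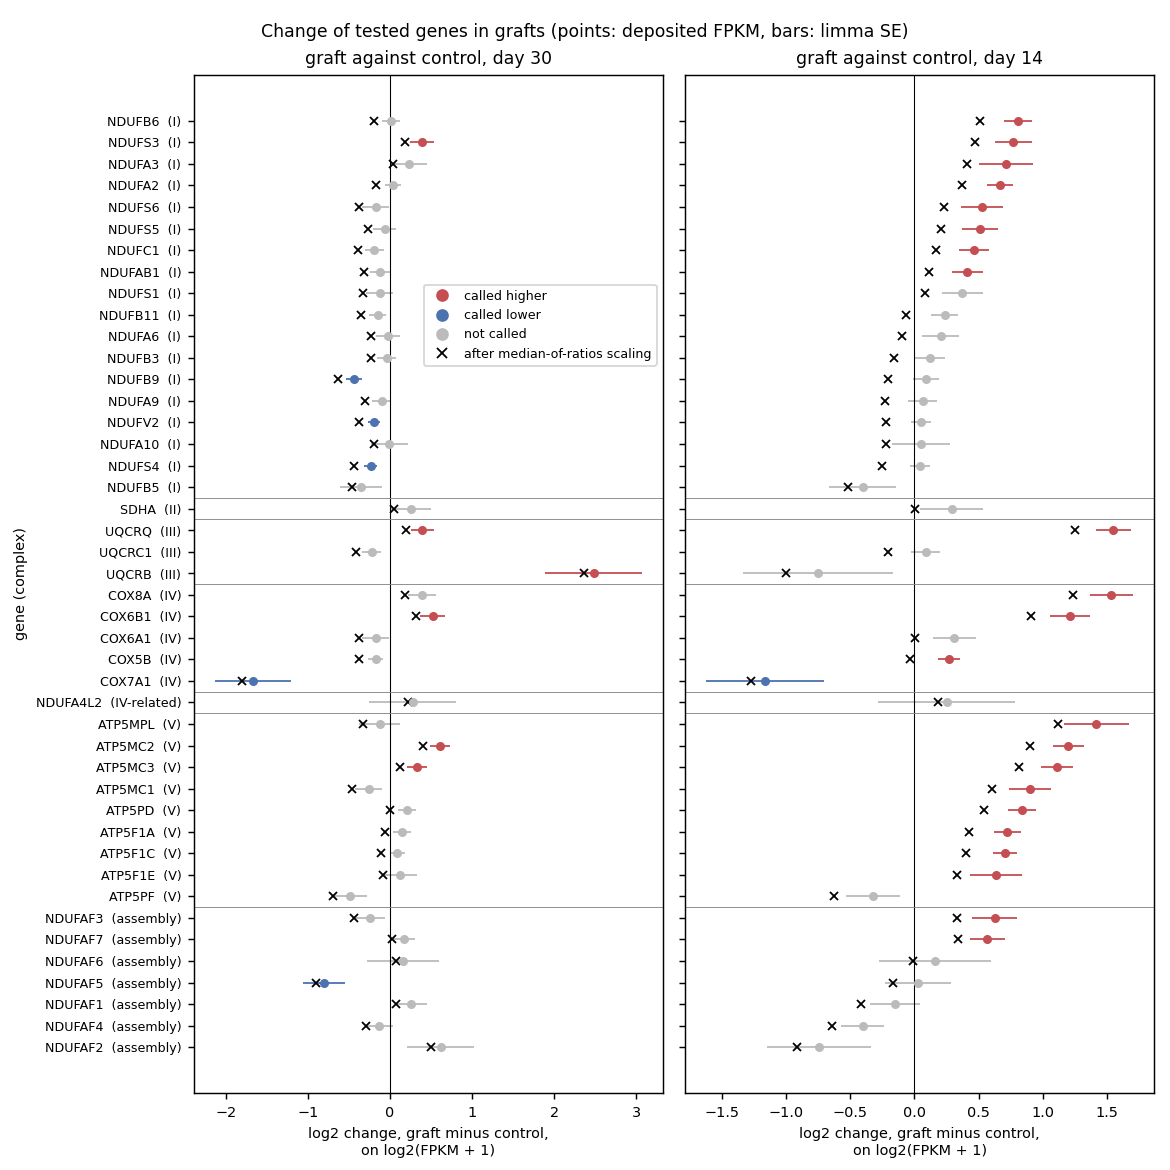
Points give the log2 change, graft minus control, of 44 tested genes with limma's SE, at day 30 (left) and day 14 (right), with genes grouped by complex and ordered by their day 14 change. Red marks genes called higher, blue called lower and grey not called, and crosses give the change after median-of-ratios scaling. At day 14 most points of complex V lie right of 0, and at day 30 most points lie near 0.

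The largest increase at day 14 was in complex III. UQCRQ, a small subunit that sits by the ubiquinone site, had 106, 155, 166 and 151 FPKM in grafts of day 14 (replicates 1 to 4), against 49.6, 45.4, 43.8 and 53.8 FPKM in controls of day 14. Every graft lay above every control, and the log2 change was 1.55 (SE 0.14, adjusted p = 4.91e-08). The related subunit UQCRB had 3.80, 11.7, 7.84 and 1.83 FPKM in grafts of day 14 and 12.8, 8.32, 5.53 and 13.6 FPKM in controls of day 14, and was not called. UQCRC1, a core protein of the matrix side, had 36.1, 35.8, 51.0 and 54.1 FPKM in grafts of day 14 and 39.0, 42.8, 42.3 and 39.4 FPKM in controls of day 14. The groups of UQCRC1 overlapped and its log2 change of 0.09 (SE 0.12, adjusted p = 0.55) missed the threshold and turned negative under all 4 other scalings.

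Complex IV held further large increases. COX8A, a short membrane subunit, had 297, 494, 339.9 and 338 FPKM in grafts of day 14, against 122, 131, 138 and 106 FPKM in controls of day 14, with a log2 change of 1.54 (SE 0.17, adjusted p = 6.19e-07). COX6B1, which joins the monomers of complex IV on the side facing the intermembrane space, had 425, 691, 587 and 645 FPKM in grafts of day 14, against 227, 249.7, 255 and 266 FPKM in controls of day 14. For both genes the groups were separate, and COX6B1 rose by 1.21 (SE 0.16, adjusted p = 3.62e-06). COX5B, a zinc-binding subunit, had 151, 173, 196 and 205 FPKM in grafts of day 14 and 153, 149, 149 and 145 FPKM in controls of day 14. Its groups overlapped, and its log2 change of 0.27 (SE 0.09, adjusted p = 0.0158) became -0.03 with median-of-ratios scaling and -0.07 with quantile normalization and without the mitochondrially encoded genes. The call of COX5B was lost without graft replicate 3 or 4. COX6A1 had 472, 829.7, 614 and 659 FPKM in grafts of day 14 and 525, 503, 536 and 475 FPKM in controls of day 14, which overlapped, and was not called (0.31, SE 0.17, adjusted p = 0.133, negative without the mitochondrially encoded genes). Among 24 alternatives its smallest limma adjusted p was 0.0287.

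In complex V all 3 genes of the c ring were higher in grafts of day 14. ATP5MC1, ATP5MC2 and ATP5MC3 encode the same mature c subunit with different import sequences. ATP5MC2, the most abundant of them, had 273, 383, 358 and 399.9 FPKM in grafts of day 14, against 152, 144, 157 and 154 FPKM in controls of day 14 (log2 change 1.20, SE 0.12, adjusted p = 2.67e-07). ATP5MC3 had 221, 242, 342 and 360.2 FPKM in grafts of day 14, against 135, 138, 131 and 122 FPKM in controls of day 14 (log2 change 1.11, SE 0.12, adjusted p = 6.83e-07). ATP5MC1 had 73.7, 114, 107 and 118 FPKM in grafts of day 14, against 53.8, 51.6, 57.2 and 52.8 FPKM in controls of day 14. No graft overlapped a control for any of the 3. ATP5MPL, a small subunit of the membrane part, had 252, 354, 329 and 231 FPKM in grafts of day 14, against 72.1, 144, 97.1 and 129 FPKM in controls of day 14 (log2 change 1.42, SE 0.25, adjusted p = 0.000127). The controls of ATP5MPL scattered more than those of the c-ring genes, and the groups were still separate. In the catalytic head, ATP5F1A, the alpha subunit, had 236, 234, 309.8 and 329 FPKM in grafts of day 14, against 163, 169, 169 and 161 FPKM in controls of day 14, with a log2 change of 0.72 (SE 0.11, adjusted p = 1.86e-05). The call of ATP5F1A was lost under 2 of 24 alternatives, among them TPM. The gamma subunit ATP5F1C (log2 change 0.70) and the epsilon subunit ATP5F1E (0.63) were also called higher, although ATP5F1E rested in part on graft replicate 2, with 2046 FPKM against 924 to 979 FPKM in the other 3 grafts. In the peripheral stalk, which holds the head still, ATP5PD was called higher (log2 change 0.84), whereas ATP5PF had 269, 399, 215 and 197 FPKM in grafts of day 14, overlapping 315, 322, 332 and 333 FPKM in controls of day 14. ATP5PF was not called on the deposited values (log2 change -0.32, SE 0.21, adjusted p = 0.207), but it was called lower under all 4 other scalings, with log2 changes of -0.67 to -0.57.

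**Figure D3:**
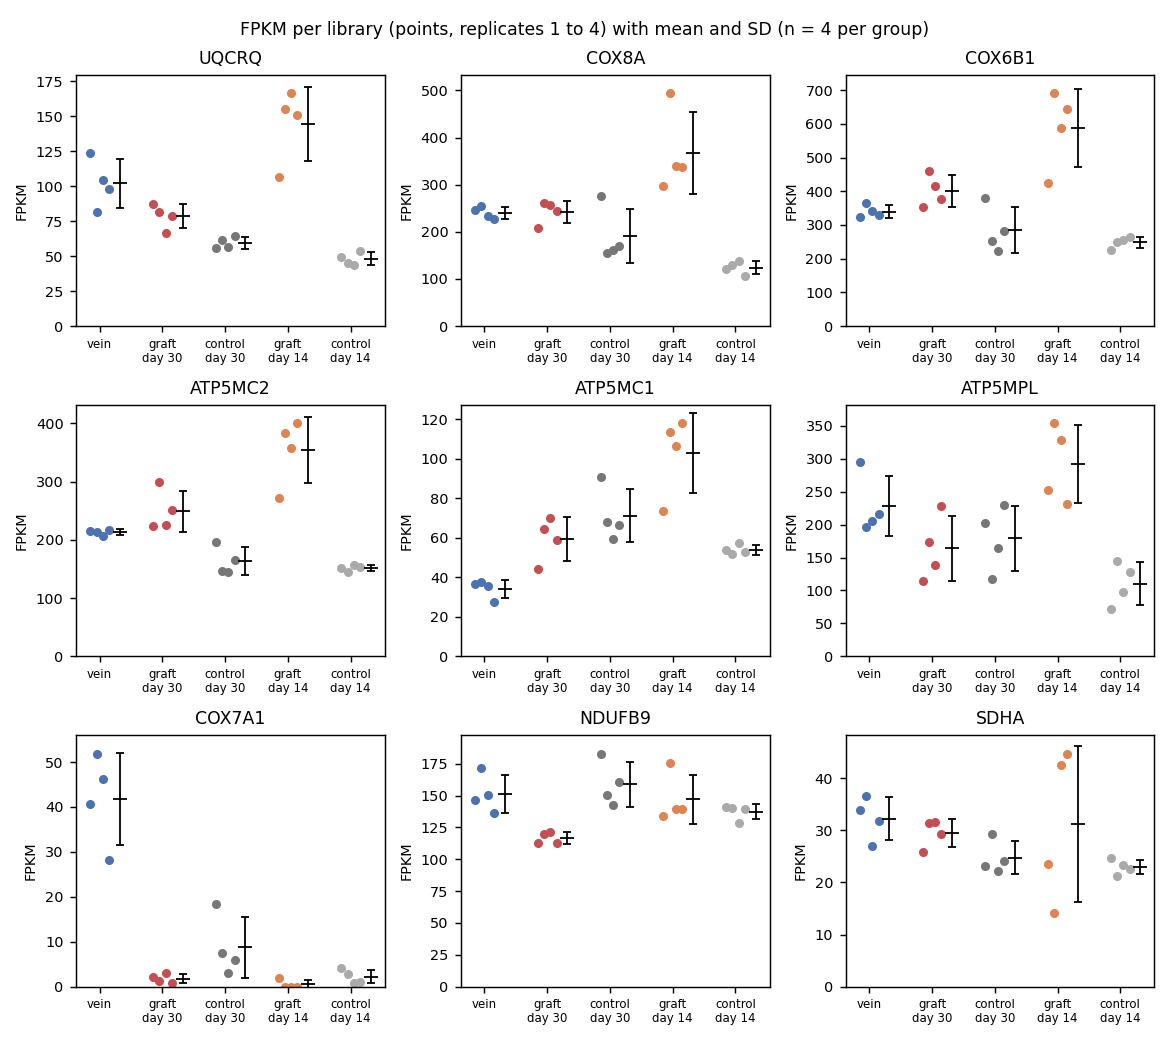
FPKM of 9 genes in each library (points, replicates 1 to 4 from left to right) with the mean and SD (n = 4) at the right of each group. UQCRQ, COX8A, COX6B1, ATP5MC2, ATP5MC1 and ATP5MPL are highest in grafts of day 14, COX7A1 is highest in vein, NDUFB9 is lowest in grafts of day 30, and SDHA scatters widely in grafts of day 14.

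In complex I the largest log2 change among the genes called higher at day 14 was 0.81 (NDUFB6). NDUFB6, an accessory subunit of the membrane arm, averaged 124 ± 15.9 FPKM in grafts of day 14 and 69.8 ± 5.76 FPKM in controls of day 14, with no overlap. NDUFS3, a core subunit of the arm that carries electrons, averaged 101 ± 18.5 FPKM in grafts of day 14 and 57.9 ± 2.02 FPKM in controls of day 14, and NDUFA2, an accessory subunit near the site where NADH is oxidised, 208 ± 36.6 FPKM in grafts of day 14 and 129 ± 5.29 FPKM in controls of day 14 (SD, n = 4 each). NDUFA3, NDUFAB1, NDUFC1, NDUFS5 and NDUFS6 were called too, all with separate groups and none called under all 5 scalings. NDUFS1, the large core subunit that carries iron-sulfur clusters, had 28.2, 22.0, 39.5 and 43.6 FPKM in grafts of day 14, on both sides of the 23.3, 25.4, 24.2 and 25.6 FPKM in controls of day 14, and was not called (log2 change 0.37, SE 0.16, adjusted p = 0.0604). Among 24 alternatives its smallest limma adjusted p was 0.00262. Complex II was represented by SDHA alone, the flavoprotein that oxidises succinate. It had 23.6, 14.0, 42.6 and 44.8 FPKM in grafts of day 14 and 24.6, 21.3, 23.3 and 22.6 FPKM in controls of day 14. Graft replicate 2 was the lowest of these 8 libraries and graft replicates 3 and 4 the highest, and the log2 change of 0.29 (SE 0.25, adjusted p = 0.333) missed the threshold and became -0.03 without the mitochondrially encoded genes. Without graft replicate 2 it was 0.61 (adjusted p = 0.00648) and called.

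Of the complex I assembly factors, NDUFAF3 and NDUFAF7 were called higher at day 14. NDUFAF3 had 26.2, 43.3, 31.5 and 31.8 FPKM in grafts of day 14, against 21.5, 21.9, 16.5 and 24.2 FPKM in controls of day 14. NDUFAF7, a methyltransferase that modifies a core subunit, had 3.78, 3.56, 4.66 and 3.87 FPKM in grafts of day 14, against 2.54, 2.14, 2.20 and 2.51 FPKM in controls of day 14. Both had separate groups. The others stayed below 12 FPKM in all libraries.

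The cellular makeup of the grafts differed from that of the controls in the same libraries. Smooth muscle markers (7 of 8 listed were in the table) summed to 646 to 971 FPKM in grafts of day 14 and 8921 to 9425 FPKM in controls of day 14, and all 6 tested were called lower. Smoothelin (SMTN) was listed at 0 everywhere. Macrophage markers summed to 433 to 1043 FPKM in grafts of day 14 and 42.8 to 51.2 FPKM in controls of day 14, with 5 of 8 tested called higher and 1 lower. CD68 averaged 94.2 FPKM in grafts of day 14 and was listed at 0 in controls, whereas lysozyme (LYZ) averaged 6.005 FPKM in grafts of day 14 and 36.7 FPKM in controls of day 14. Markers of cycling cells summed to 26.6 to 51.4 FPKM in grafts of day 14 and 1.95 to 2.44 FPKM in controls of day 14, and those of T and B cells to 43.1 to 80.8 and 0.530 to 2.33 FPKM in the same groups. Adipocyte markers summed to 294 to 1427 FPKM in grafts of day 14 and 53.5 to 56.0 FPKM in controls of day 14, with 3 of 4 tested called higher and 1 lower. Of 6 tested markers each, 3 endothelial ones were called higher and 1 lower, 1 fibroblast marker was higher and 2 were lower, and 1 nerve marker was higher and 5 were lower. The part of these markers in the result was not tested. In such bulk tissue, more or fewer cells of a type cannot be told apart from more or less RNA per cell.

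At day 30 fewer genes differed. Of the 45 genes, 6 were called higher and 5 lower in grafts, against 26.0% and 11.6% of all genes, and the median log2 change was -0.02, against 0.18 over all genes. Median-of-ratios scaling gave 2 higher and 13 lower, against 19.6% and 17.0% of all genes, and TPM 1 and 9, against 14.7% and 14.5%. The higher count was 3 without graft replicate 2 or 4 and 2 without control replicate 3. The lower count was 3 without graft replicate 1, 2 or 3 or control replicate 1 or 4, and 2 without control replicate 2. UQCRQ, COX6B1, ATP5MC2, ATP5MC3 and NDUFS3 were called higher on both days, 5 of the 23 genes of day 14 and 5 of the 6 of day 30. Over all genes 36.5% were called higher at day 14 and 26.0% at day 30, and the share called on both days was not counted. COX7A1 was called lower on both. The graft and control libraries of the days are different, so these comparisons share no library, but they come from 1 fit and share its estimate of the spread.

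ATP5MC2 had 223, 298, 225 and 252 FPKM in grafts of day 30, against 197, 146, 144 and 166 FPKM in controls of day 30, with separate groups and a log2 change of 0.61 (SE 0.12, adjusted p = 0.00073). For COX6B1 the values were 352, 460.1, 415 and 376 FPKM in grafts of day 30 and 379.6, 254, 222 and 281 FPKM in controls of day 30, where control replicate 1 lay within the range of the grafts (log2 change 0.52, SE 0.16, adjusted p = 0.0135). UQCRQ had 87.2, 81.4, 66.7 and 78.6 FPKM in grafts of day 30 and 55.6, 61.6, 56.4 and 64.1 FPKM in controls of day 30, a narrow separation (log2 change 0.39, SE 0.14, adjusted p = 0.0332). NDUFS3 (0.39) and ATP5MC3 (0.33) passed with adjusted p-values of 0.0393 and 0.0464. The calls of UQCRQ, NDUFS3 and ATP5MC3 were lost under 14, 14 and 16 of 24 alternatives. Among single libraries, UQCRQ was lost without graft replicate 1, 2 or 4 or control replicate 1 or 3, NDUFS3 without graft or control replicate 2, 3 or 4, and ATP5MC3 without graft replicate 1, 2 or 4 or any control. COX6B1 was lost without control replicate 3. Of these 5, only ATP5MC2 was called under median-of-ratios scaling, and none under TPM. UQCRB was listed at 0 in 3 controls of day 30 and at 1.88 FPKM in replicate 2, against 11.5, 6.79, 3.78 and 4.97 FPKM in grafts of day 30. It was called higher under all 5 scalings (adjusted p = 0.00272), but controls of day 14 held 12.8, 8.32, 5.53 and 13.6 FPKM, and its zeros may be failed estimates.

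NDUFB9, an accessory subunit of the membrane arm of complex I, was the most abundant gene called lower at day 30. It had 113, 120.2, 122 and 113 FPKM in grafts of day 30, against 183, 150.2, 142 and 160.4 FPKM in controls of day 30. All grafts lay under all controls, with a log2 change of -0.44 (SE 0.10, adjusted p = 0.00177) that was called under all 5 scalings. NDUFS4, an accessory subunit added late in assembly, had 53.6, 58.6, 52.5 and 56.5 FPKM in grafts of day 30, against 67.3, 68.1, 62.4 and 63.1 FPKM in controls of day 30, also without overlap (log2 change -0.23, SE 0.08, adjusted p = 0.0273), a call lost under 8 of 24 alternatives, among them leaving out graft replicate 1 or 3 or control replicate 1 or 2. NDUFV2, an iron-sulfur subunit of the NADH-oxidising module, had 7.15, 7.55, 7.96 and 8.21 FPKM in grafts of day 30 and 9.80, 8.94, 8.14 and 9.14 FPKM in controls of day 30, which overlapped slightly (log2 change -0.20, SE 0.08, adjusted p = 0.0471). The call of NDUFV2 was lost under 15 of 24 alternatives, among them leaving out graft replicate 1, 2 or 3 or control replicate 1, 2 or 4. The assembly factor NDUFAF5, under 4 FPKM throughout, was the other gene called lower. Not called at day 30 on the deposited values were COX8A (209, 262, 256 and 244 FPKM in grafts of day 30 and 276, 155, 161 and 169.8 FPKM in controls of day 30, log2 change 0.38), ATP5F1A (0.15, negative under TPM and median-of-ratios scaling), COX5B (-0.18), COX6A1 (-0.18), UQCRC1 (-0.22), NDUFS1 (-0.13) and SDHA (0.25, negative under TPM). Under at least 1 of 24 alternatives limma called COX8A higher (smallest adjusted p = 0.0002). The same holds for UQCRC1 and COX5B, called lower (smallest adjusted p = 0.00193 and 0.000676). Smooth muscle markers summed to 1485 to 1894 FPKM in grafts of day 30 and 6543 to 9302 FPKM in controls of day 30, and macrophage markers to 406 to 729 and 5.72 to 25.1 FPKM in the same groups, with 6 of 8 tested called higher. Adipocyte markers summed to 679.8 to 815 FPKM in grafts of day 30 and 53.1 to 446 FPKM in controls of day 30, with 2 of 4 tested called higher. Their part in the result was not tested.

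The difference between the days was tested directly, as the graft effect at day 30 minus that at day 14. It was called negative for 16 of the 45 genes and positive for 1, UQCRB, against 7.57% called negative and 5.38% called positive among all genes. Called or not, the difference lay above 0 for 6 of the 45 genes. Under all 5 scalings the difference was called for ATP5MPL (-1.55, SE 0.36, adjusted p = 0.00892), ATP5MC1 (-1.16), UQCRQ (-1.16), COX8A (-1.15) and UQCRB. With the controls of day 14 counted as 1 sample, limma called 0 of the 45 genes in either direction (16 negative and 1 positive at an unadjusted p under 0.05), where 0.52% of all genes were called negative and 0.578% positive. By complex, 7 of 9 genes in complex V, 4 of 19 in complex I, 3 of 5 in complex IV, 1 of 3 in complex III and 1 of 7 assembly factors were called negative.

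Within the grafts, limma called 22 genes lower at day 30 than at day 14 and 0 higher (29 and 2 at an unadjusted p under 0.05), against 8.31% lower and 8.01% higher of all genes, and the median log2 change was -0.39, against -0.04 over all genes. NDUFA2 had 125, 131, 143 and 128 FPKM in grafts of day 30, against 182, 261, 205 and 186 FPKM in grafts of day 14, a log2 change of -0.64 (SE 0.10, adjusted p = 0.000455), and was the only gene called lower under all 5 scalings. UQCRQ (log2 change -0.86), ATP5MPL (-0.85), ATP5MC1 (-0.78), NDUFAF3 (-0.69) and NDUFB6 (-0.67) had the largest decreases. ATP5MPL was not called without graft day 30 replicate 1 or 3 or graft day 14 replicate 2 or 3, nor NDUFAF3 without graft day 30 replicate 1. The count was 1 with TPM, against 0.901% of all genes, 3 without the mitochondrially encoded genes, against 1.66%, and 3 with only these groups in the fit, against 1.19%. It was 6 without the 4 mixture-like libraries, against 2.01%, and 12 without graft day 30 replicate 1, against 4.83%.

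Among the opposite arteries, which were not operated, 2 genes were called higher at day 30 than at day 14 and 1 was called lower, against 6.28% and 4.45% of all genes. COX7A1 had 18.4, 7.45, 3.11 and 5.92 FPKM in controls of day 30 and 4.03, 2.79, 0.890 and 1.09 FPKM in controls of day 14 (log2 change 1.49, SE 0.46, adjusted p = 0.0456). COX8A had 276, 155, 161 and 169.8 FPKM in controls of day 30 and 122, 131, 138 and 106 FPKM in controls of day 14 (log2 change 0.58, SE 0.17, adjusted p = 0.0358). Neither was called without control day 30 replicate 1, the highest library for both, nor without replicate 2 or replicate 4 of the controls of day 14. The call of COX7A1 was lost under 14 of 23 alternatives, among them quantile normalization. That of COX8A was lost under 12 of 24, among them quantile normalization and median-of-ratios scaling. UQCRB, given above per library, was the gene called lower.

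In unoperated vein 18 of the 45 genes were called higher than in the 8 control arteries and 3 were called lower, against 25.2% and 12.0% of all genes. The median log2 change was 0.26, against 0.14 over all genes, and median-of-ratios scaling gave 9 higher and 4 lower, against 18.3% and 17.8% of all genes. COX7A1 differed most. It had 40.7, 51.9, 46.3 and 28.1 FPKM in vein, 18.4, 7.45, 3.11 and 5.92 FPKM in controls of day 30 and 4.03, 2.79, 0.890 and 1.09 FPKM in controls of day 14, a log2 change of 3.08 (SE 0.40, adjusted p = 8.52e-06) with every vein above every artery. UQCRQ had 124, 81.7, 104 and 98.3 FPKM in vein, against 43.8 to 64.1 FPKM in the control arteries (log2 change 0.91, SE 0.12, adjusted p = 1.11e-05). In complex I, NDUFS4 had 82.3, 93.7, 84.0 and 91.7 FPKM in vein, against 52.6 to 68.1 FPKM in the control arteries (0.53, SE 0.07, adjusted p = 1e-05), and NDUFB6 had 94.6, 119, 96.6 and 103 FPKM in vein, against 62.0 to 89.4 FPKM in the control arteries (0.49, SE 0.09, adjusted p = 0.000472). These 3 genes had separate groups. COX8A (0.67) and ATP5MPL (0.72) overlapped between vein and arteries, and ATP5MPL was not called without vein replicate 1 or under median-of-ratios scaling. NDUFB6, NDUFS4, UQCRQ, COX7A1 and COX8A were called higher in vein under all 5 scalings.

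ATP5MC1 went the other way from its c-ring partners in vein. It had 36.6, 37.4, 35.4 and 27.4 FPKM in vein, against 51.6 to 90.6 FPKM in the control arteries, without overlap and with a log2 change of -0.84 (SE 0.14, adjusted p = 0.000153) that held under all 5 scalings. ATP5MC2 (0.44) and ATP5MC3 (0.46), which encode the same mature protein, were called higher in vein on the deposited values, under median-of-ratios scaling and under quantile normalization, but not under TPM or without the mitochondrially encoded genes. ATP5PF (-0.35, SE 0.18, adjusted p = 0.146) was called lower in vein under TPM, median-of-ratios scaling and without the mitochondrially encoded genes. UQCRC1 had 30.3, 31.3, 28.0 and 29.6 FPKM in vein, against 36.3 to 42.8 FPKM in the control arteries, without overlap (-0.39, SE 0.10, adjusted p = 0.00509), a call lost under TPM. NDUFAB1, the mitochondrial acyl carrier protein and a complex I subunit, was the third gene called lower (-0.30, SE 0.11, adjusted p = 0.0376, with overlap). The call of NDUFAB1 was lost under 13 of 28 alternatives, among them TPM and leaving out any control of day 14, control day 30 replicate 1 or vein replicate 2 or 4. Endothelial markers summed to 469.7 to 589 FPKM in vein, 50.2 to 79.1 FPKM in controls of day 30 and 37.3 to 40.1 FPKM in controls of day 14. Smooth muscle markers summed to 4031 to 4337 FPKM in vein. Their part in the result was not tested.

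Isoforms of complex IV that are linked to striated muscle were lower in grafts. COX7A1, the isoform of heart and skeletal muscle, was listed at 0 in graft replicates 2 to 4 of day 14 and at 1.99 FPKM in replicate 1, against 4.03, 2.79, 0.890 and 1.09 FPKM in controls of day 14 (adjusted p = 0.0406, lost under 12 of 23 alternatives). At day 30 it had 2.03, 1.18, 3.01 and 0.720 FPKM in grafts, against 18.4, 7.45, 3.11 and 5.92 FPKM in controls, with separate groups (log2 change -1.67, SE 0.46, adjusted p = 0.00776), and was not called with a pseudocount of 0.1 or without the mixture-like libraries. COX6A2, the other striated muscle isoform, was identified through its description. It had 0.420, 2.20, 0.730 and 0 FPKM in grafts of day 14, against 4.29, 5.44, 7.01 and 2.90 FPKM in controls of day 14. It was listed at 0 in all 4 grafts of day 30 and all 4 veins, against 1.52, 1.98, 2.18 and 2.64 FPKM in controls of day 30. The log2 ratio of COX6A2 to COX6A1, each with 1 FPKM added, which does not change with the scaling of a library apart from that added 1, was lower by 2.08 in grafts than in controls at day 14 and by 1.43 at day 30. Both gave a two-sided exact permutation p of 0.0286, the smallest that 4 against 4 libraries allow, and 0.0571 after Benjamini-Hochberg adjustment over the 6 ratio tests. In vein the ratio was lower by 2.29 than in the 8 control arteries (exact permutation p = 0.00404, adjusted 0.0242). Where COX6A2 was listed at 0 the ratio rests on the added 1. In vein COX7A1 was thus higher and COX6A2 was listed at 0.

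Markers of striated muscle were measured beside these isoforms. They summed to 28.2 to 40.2 FPKM in vein, 26.6 to 58.9 FPKM in grafts of day 30, 471 to 594 FPKM in controls of day 30, 8.78 to 81.3 FPKM in grafts of day 14 and 561 to 622 FPKM in controls of day 14. Of 15 listed, 11 were in the table and 3 were tested, all called lower in grafts on both days and in vein. In controls TCAP and TNNC1 made up most of the sum. They averaged 404 and 175 FPKM at day 14 and 350 and 154 FPKM at day 30. CKM followed with 11.3 and 13.4 FPKM, and ACTA1 was next with 1.29 and 0.25 FPKM. The skeletal troponin C gene TNNC2 was at 0 throughout. TNNI1, TNNT3, MYL1 and MYH7 averaged higher in grafts than in controls at day 14, at most 1.215 FPKM. Adipocyte markers, given above for grafts and controls, summed to 106 to 439.7 FPKM in vein. The part of both lists in the isoform results was not tested. NDUFA4L2, the paralog that low oxygen induces in other mammals, was listed at 0 in 3 of 4 grafts on each day, with 3.94 FPKM in graft replicate 3 of day 14 and 4.62 FPKM in graft replicate 2 of day 30. It stayed under 1 FPKM in controls and reached 1.86 FPKM in vein. The log2 ratio of NDUFA4L2 to NDUFA4 did not pass in grafts at day 14, in grafts at day 30 or in vein (differences -0.27, -0.56 and 0.79, exact permutation p = 0.629, 0.6 and 0.206, adjusted 0.629, 0.629 and 0.309), with NDUFA4 itself listed at 0 in at least 1 library of each group.

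The mitochondrially encoded partners of these subunits were unevenly listed. ND1, ND2 and COX1 were above 1000 FPKM in all 20 libraries. COX2, ATP8, ATP6, ND4L and CYTB were above 1000 FPKM in all 4 controls of day 14, and lay under 11 FPKM in all 4 veins and in graft replicate 4 of day 14. The 13 genes made up 3.78% to 4.64% of the summed FPKM in vein, 10.7% to 29.1% in grafts of day 30, 4.39% to 7.81% in controls of day 30, 3.98% to 32.7% in grafts of day 14 and 22.6% to 24.3% in controls of day 14. Library totals of FPKM differed as well. TPM, which gives every library the same total, lowered the median log2 change of the 45 genes at day 14 to 0.13, and giving the same total to all genes but these 13 lowered it to 0.05. The medians over all genes were 0.09 and 0.01 under the same settings. At day 30 the median of the 45 genes was -0.03 with the 13 genes left out of the total, and 4 were called higher and 4 lower, against 24.7% and 11.1% of all genes.

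**Figure D4:**
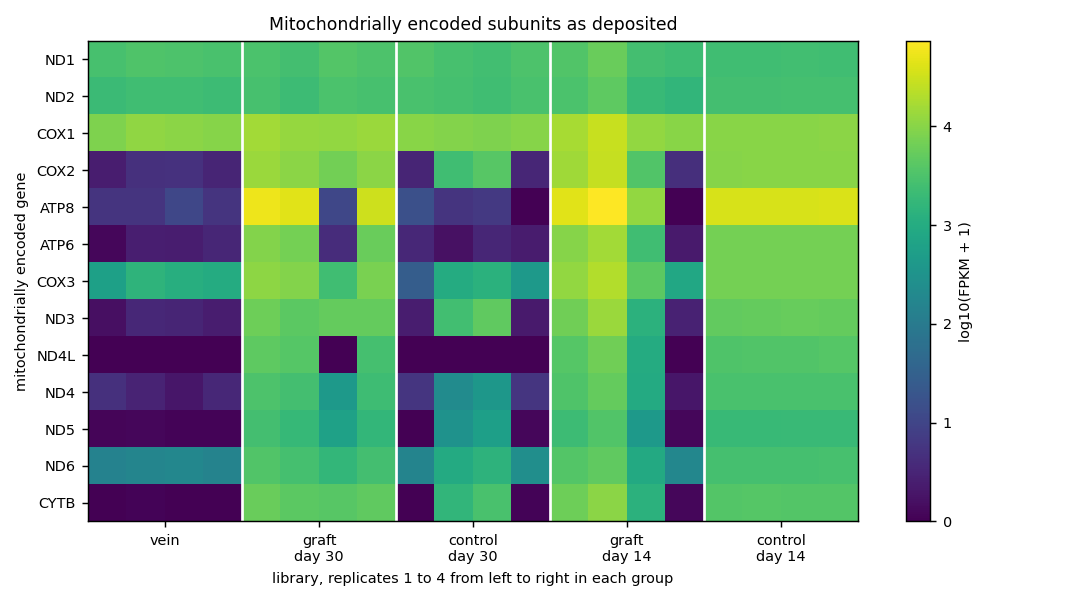
log10(FPKM + 1) of the 13 mitochondrially encoded genes (rows) in each library (columns, replicates 1 to 4 in each group). ND1, ND2 and COX1 are bright in all libraries, whereas ATP8, ATP6 and ND4L are dark in vein, in graft replicate 3 of day 30, in all controls of day 30 and in graft replicate 4 of day 14, and bright in all controls of day 14.

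Subunits that the name rule missed were found through their NCBI gene number or description, 12 tested in all. Of these, 6 were called higher and 1 lower in grafts at day 14 (36.5% and 17.0% of all genes), 2 higher and 1 lower at day 30 (26.0% and 11.6% of all genes), and 6 higher and 1 lower in vein (25.2% and 12.0% of all genes). Median-of-ratios scaling gave 3 and 2 at day 14 (27.3% and 24.7% of all genes). It gave 0 and 2 at day 30 (19.6% and 17.0% of all genes) and 4 and 1 in vein (18.3% and 17.8% of all genes). ATP5PB, a subunit of the peripheral stalk, averaged 29.1 ± 1.15 FPKM in grafts of day 14 and 18.6 ± 0.479 FPKM in controls of day 14 (log2 change 0.62, SE 0.07, adjusted p = 4.28e-07). NDUFB8 (0.86) and UQCRH (0.56) were higher at day 14 too. ATP5F1B, the catalytic beta subunit, had a log2 change of 0.31 (SE 0.11, adjusted p = 0.0204) at day 14. ATP5IF1, which blocks the ATP synthase from running backwards, averaged 57.1 ± 5.85 FPKM in vein, against 38.2 ± 5.46 FPKM in controls of day 30 and 34.9 ± 1.64 FPKM in controls of day 14 (log2 change 0.63, SE 0.10, adjusted p = 5.66e-05). COX6A2 was the gene called lower each time.

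Among carriers and subunits outside the rule (8 tested), 4 were called higher and 1 lower at day 14, 1 higher and 2 lower at day 30. As shares of the list, 50.0% and 12.5% were called higher, against 36.5% and 26.0% of all genes. Lower calls made up 12.5% and 25%, against 17.0% and 11.6% of all genes. Median-of-ratios scaling gave 3 higher and 2 lower at day 14 (27.3% and 24.7% of all genes) and 1 and 2 at day 30 (19.6% and 17.0%). COX4I2, an isoform of the subunit 4 that is linked to low oxygen in other mammals, had 3.81, 9.26, 2.55 and 3.03 FPKM in grafts of day 14, against 0.320, 0.400, 0 and 0.270 FPKM in controls of day 14. At day 30 it had 6.33, 10.0, 7.35 and 5.36 FPKM in grafts, against 1.28, 0.870, 0.700 and 1.60 FPKM in controls. All grafts exceeded all controls on both days, with log2 changes of 2.06 (SE 0.30, adjusted p = 1.77e-05) at day 14 and 1.96 (SE 0.30, adjusted p = 5.93e-05) at day 30. VDAC3, a pore of the outer membrane, was higher at day 14 (log2 change 1.21, SE 0.10, adjusted p = 3.42e-08). SLC25A4, the muscle form of the carrier that exchanges ADP for ATP, had 58.4, 81.5, 42.0 and 39.1 FPKM in grafts of day 14, against 119, 126, 125 and 124 FPKM in controls of day 14. It was lower on both days, with log2 changes of -1.21 (SE 0.24, adjusted p = 0.000411) at day 14 and -1.02 (SE 0.24, adjusted p = 0.00287) at day 30. Cytochrome c (CYCS) was higher at day 14 (0.55), lower at day 30 (-0.41) and lower in vein (-0.39).

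The mitochondrial ribosome, which translates the mitochondrially encoded subunits, had 33 of 53 tested genes called higher and 0 lower by limma in grafts at day 14 (33 and 0 at an unadjusted p under 0.05), against 36.5% and 17.0% of all genes, with a median log2 change of 0.48. The higher count was 10 with TPM, 15 with median-of-ratios scaling, 16 with quantile normalization and 11 without the mitochondrially encoded genes, against 24.7%, 27.3%, 25.3% and 25.2% of all genes. In the same order the lower count was 0, 2, 2 and 1, against 19.1%, 24.7%, 26.3% and 24.1% of all genes. At day 30 it had 9 higher and 1 lower (17% and 1.89%), against 26.0% and 11.6% of all genes. In vein it had 19 higher and 1 lower (35.8% and 1.89%), against 25.2% and 12.0% of all genes. MRPL58, a ribosome rescue factor, had the largest change among those named at day 14 (1.46, SE 0.20, adjusted p = 5.93e-06). Of assembly factors outside the rule (26 tested), 12 were called higher and 2 lower at day 14, 6 higher and 2 lower at day 30. As shares of the list, 46.2% and 23.1% were called higher, against 36.5% and 26.0% of all genes. Lower calls made up 7.69% on each day, against 17.0% and 11.6% of all genes. Median-of-ratios scaling gave 9 higher and 4 lower at day 14 (27.3% and 24.7% of all genes) and 4 and 6 at day 30 (19.6% and 17.0%). COX10, an enzyme of heme a synthesis, was higher at day 14 (0.96, SE 0.12, adjusted p = 2.8e-06) and day 30 (0.67), as was OXA1L, the inner membrane insertase (0.87 and 0.73 on the same days). ATPAF1, a chaperone of ATP synthase assembly, was higher at day 14 (0.72), and COA3, a complex IV assembly factor, had a log2 change of 1.11 there. Of 9 tested genes of the citric acid cycle, which supplies NADH and succinate, limma called 4 higher and 0 lower at day 14 (4 and 1 at an unadjusted p under 0.05), and 1 higher and 2 lower at day 30. As shares of the list, 44.4% and 11.1% were called higher on these days, against 36.5% and 26.0% of all genes. Lower calls made up 0% and 22.2%, against 17.0% and 11.6%. Median-of-ratios scaling gave 3 higher and 2 lower at day 14 (27.3% and 24.7% of all genes) and 1 and 4 at day 30 (19.6% and 17.0%). The 4 called higher at day 14 included MDH2, malate dehydrogenase (0.84), and the isocitrate dehydrogenase subunits IDH3A (0.86) and IDH3B (0.70).

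Of the 8 tested regulators of mitochondrial biogenesis, 1 was called higher in grafts on each day, against 36.5% of all genes at day 14 and 26.0% at day 30. Median-of-ratios scaling gave 1 higher and 3 lower at day 14, against 27.3% and 24.7% of all genes. TFB1M, a methyltransferase of mitochondrial ribosomal RNA, had 6.37, 9.02, 8.66 and 8.32 FPKM in grafts of day 14, against 3.23, 1.83, 3.34 and 3.59 FPKM in controls of day 14. Every graft lay above every control (log2 change 1.20 (SE 0.16, adjusted p = 5.39e-06) at day 14 and 0.56 (SE 0.16, adjusted p = 0.00957) at day 30). TFAM, which packages and transcribes mitochondrial DNA, was not called in grafts on either day. It averaged 7.33 ± 0.434 FPKM in vein, against 4.51 ± 0.662 FPKM in controls of day 30 and 5.46 ± 0.276 FPKM in controls of day 14, and was higher in vein (log2 change 0.48, SE 0.09, adjusted p = 0.000415). PPARGC1A, the coactivator PGC-1alpha, lay below the filter on low values, at 0.270 to 0.700 FPKM in grafts of day 14 and 0.670 to 1.03 FPKM in controls of day 14.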

How the data were processed

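Bulk RNA of 20 vessel libraries was sequenced in paired reads. The tools fastp, HISAT2, StringTie, RSEM and DESeq2 are listed, without versions, per the submitters' processing notes, and the genome build is not given in the sources used here. Deposited were FPKM of 24964 transcripts, made by the authors, and no counts, so depth is unknown and neither counting intervals nor floors can be given.

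FPKM were summed over the rows of each gene ID, giving 23669 genes. The 8657 genes that reached 1 FPKM in 4 or more libraries (45 of the 47) were tested with limma 3.58.1 (R 4.3.3) on log2(FPKM + 1), with group means fitted over the 20 libraries together, variances that follow the mean level, and Benjamini-Hochberg adjustment over all genes at 0.05, two-sided. Fold changes on this scale understate the change of low genes. Errors are limma's SE for log2 changes and SD for FPKM. Ratios of isoforms were tested by exact permutation over libraries. The procedure was checked on simulated data with independent noise and the same SD in every group for each gene. That check cannot show how calls behave where the groups differ in spread, as they do here. Tables and plots used Python 3.11.15, pandas 2.3.3, numpy 2.4.6, scipy 1.17.1 and matplotlib 3.10.9.

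Genes named are, in each comparison, up to 6 rises and 6 falls with the largest change, provided the higher group averaged 5 FPKM or more, a fixed set of well-known subunits, and up to 3 genes per neighbouring list. Genes outside this rule that the text names were chosen after their values were seen. Members, lists and tests were chosen with earlier results of these data known. Symbols absent from the table were taken from a RefSeq table of rabbit genes by NCBI gene number. COX7A2 was not found by name, so the ratio of COX7A1 to it was not formed. A gene counted among the 47 is not reported here by name.

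Alternatives were a pseudocount of 0.1, filters of 5 FPKM or none, genes listed at 0 left out, TPM, median-of-ratios and quantile scaling, the highest row per gene, only the groups compared, weights per group, a replicate block, each library left out, the controls of day 14 as 1 sample, and 4 libraries left out that lie near a weighted mean of the others of their group. Rescaling without the mitochondrially encoded genes, and leaving out graft day 14 replicate 2 with control day 30 replicate 1, were added after seeing the data.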

Additional observations from a re-analysis of the deposited data

Results flagged for a closer look

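In 9 of 120 groups of 4 libraries examined for the named genes, 1 library lay far from the other 3 by Dixon's criterion, which chance meets in about 1 of 20 groups. COX6A1 had 722.5 FPKM in vein replicate 2, against 580.9 to 591.8 FPKM in the other veins, and NDUFS3 had 94.25 FPKM in the same library, against 76.04 to 76.81 FPKM. COX8A had 275.6 FPKM in control replicate 1 of day 30, against 155.4 to 169.8 FPKM in the other controls. NDUFB9 had 175.9 FPKM in graft replicate 2 of day 14, against 134.2 to 139.4 FPKM, and 128.4 FPKM in control replicate 3 of day 14, against 139.7 to 141.2 FPKM. In 4 further cases the other 3 libraries were listed at 0: COX7A1 at 1.99 FPKM in graft replicate 1 of day 14, NDUFA4L2 at 3.94 FPKM in graft replicate 3 of day 14 and at 4.62 FPKM in graft replicate 2 of day 30, and UQCRB at 1.88 FPKM in control replicate 2 of day 30.

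The graft effect differed between the days, by the test of the difference itself (day 30 minus day 14, log2 scale, limma adjusted over all genes), for 9 named genes. It was 3.232 for UQCRB, which was listed at 0 in 3 controls of day 30, and negative for the other 8: -1.546 for ATP5MPL, -1.161 for ATP5MC1, -1.16 for UQCRQ, -1.151 for COX8A, -0.8651 for NDUFAF3, -0.8008 for NDUFB6, -0.5796 for ATP5F1A and -0.4438 for COX5B. Graft values of these 8 genes averaged lower at day 30 than at day 14, and each of the 9 calls was lost when the controls of day 14 counted as 1 sample. Over all alternatives the call of NDUFAF3 was lost under 15 of 32, that of COX5B under 11 and that of ATP5F1A under 7.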

How the results depend on the processing

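The 6 largest increases at day 14 (UQCRQ, COX8A, ATP5MPL, COX6B1, ATP5MC2 and ATP5MC3) kept their direction and stayed called under all 24 alternatives. Counts of called genes moved more, and for none was the cause tested. Counts over all 8657 genes moved too. At day 14 they were 3161 higher and 1473 lower, and 2786 and 1299 without the mixture-like libraries. At day 30 they were 2253 and 1000, and 1628 and 751 without those libraries. For the change between days 655 were negative, 269 with TPM and 473 with quantile normalization. Within grafts 719 were lower, 78 with TPM and 681 with quantile normalization. The counts below are of the 45 genes. At day 14 (23 higher, 1 lower) there were 12 and 3 with TPM, 14 and 5 with median-of-ratios scaling, 14 and 7 with quantile normalization, 13 and 6 without mitochondrially encoded genes, 14 and 0 with controls of day 14 as 1 sample, 9 and 0 with that and the 4 mixture-like libraries out. The lower count was 0 without a filter, with only the groups compared, with weights per group and without the 4 mixture-like libraries, and 2 without graft day 14 replicate 2 and control day 30 replicate 1. At day 30 (6 higher, 5 lower) there were 1 and 9 with TPM, 2 and 13 with median-of-ratios scaling, 8 lower with quantile normalization, 3 lower without genes listed at 0, 3 higher with controls of day 14 as 1 sample, 2 and 2 without the mixture-like libraries, and 1 and 0 with both changes.

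For the change between days (16 negative, 1 positive) the negative count was 6 with TPM, 5 with quantile normalization, 4 without mitochondrially encoded genes, 5 without the mixture-like libraries and 0 with controls of day 14 as 1 sample or both changes, when the positive count was also 0, as it was without genes listed at 0. For grafts of day 30 against day 14 (22 lower, 0 higher) the lower count was 1 with TPM, 13 with quantile normalization and with weights, 3 with only the groups compared and without mitochondrially encoded genes, 14 with controls of day 14 as 1 sample, 6 without the mixture-like libraries and 0 with both, and the higher count was 1 with a pseudocount of 0.1. For controls of day 30 against day 14 (2 higher, 1 lower) the higher count was 4 with TPM, 1 with a pseudocount of 0.1, without genes listed at 0, with median-of-ratios scaling and without graft day 14 replicate 2 and control day 30 replicate 1, and 0 without a filter, with quantile normalization, without the mixture-like libraries, and with controls of day 14 as 1 sample or both. The lower count was 0 in the last 2 settings and without genes listed at 0. For vein (18 higher, 3 lower) there were 7 higher with TPM, 9 with median-of-ratios scaling, 6 without mitochondrially encoded genes, 1 lower with controls of day 14 as 1 sample, and 4 and 0 with both changes.

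Leaving out each library in turn gave 22 to 26 higher and 0 to 2 lower at day 14, 2 to 5 higher and 2 to 6 lower at day 30, 12 to 20 negative and 1 positive for the change between days, 12 to 26 lower and 0 to 1 higher within grafts, 0 to 2 higher and 1 lower within controls, and 14 to 19 higher and 2 to 3 lower in vein. Over all 8657 genes these ranges were 2942 to 3226 and 1346 to 1495 at day 14. At day 30 they were 1938 to 2221 and 881 to 980. For the change between days they were 497 to 872 negative and 368 to 533 positive. Within grafts they were 418 to 902 lower and 495 to 756 higher. Within controls they were 362 to 589 higher and 263 to 346 lower, and in vein 1853 to 2200 and 880 to 1093. The log2 ratio of COX6A2 to COX6A1 ranged from -2.26 to -1.81 at day 14 and from -1.70 to -1.31 at day 30, where 3 against 4 libraries cannot give an exact permutation p under 0.0571, and from -2.47 to -2.16 in vein. That of NDUFA4L2 to NDUFA4 ranged from -0.62 to 0.25 at day 14 and from -1.05 to 0.18 at day 30.

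Of the 45 genes, 14 at day 14 and 12 at day 30 turned the sign of their log2 change under at least 1 of the 4 other scalings, of which only COX5B at day 14 had been called. Among the named genes these, and those that turned without a library, were COX5B at day 14 (-0.031 with median-of-ratios scaling, -0.067 with quantile normalization, -0.072 without mitochondrially encoded genes), UQCRC1 at day 14 (-0.16 with TPM, -0.21 with median-of-ratios scaling, -0.17 with quantile normalization, -0.25 without mitochondrially encoded genes, -0.016 without graft replicate 4), SDHA at day 14 (-0.034) and COX6A1 at day 14 (-0.033), both without mitochondrially encoded genes, SDHA at day 30 (-0.0093 with TPM) and ATP5F1A at day 30 (-0.12 with TPM, -0.058 with median-of-ratios scaling).

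Deviations of same-numbered graft and control libraries correlated at -0.18 to 0.127, and 2 of 8 grafts matched their own number best. No pairing by number was seen. This cannot exclude pairing, because each group holds 4 libraries and the controls of day 14 varied little (median SD 0.0753). With the replicate block, 22 genes were called higher and 1 lower at day 14, where 2927 and 1343 of all 8657 genes were called. At day 30 the block gave 2 and 2, against 1856 and 829 of all genes. For the change between days it gave 3 negative and 1 positive, against 231 and 210. Within grafts limma called 0 lower (22 at an unadjusted p under 0.05), where only 3 of all genes were called lower. Within controls 1 was called higher and 1 lower, against 271 and 174, and in vein 23 and 4, against 2383 and 1115.

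Depth is unknown for these values. A listed 0 can be a failed estimate, the controls of day 14 are nearly identical, and 4 libraries a group limit the precision.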
